A study of Mus musculus with 6 samples.

Results

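The microRNAs (miRNAs, short RNAs that repress mRNAs) named miR-297, miR-466, miR-467 and miR-669 in the mouse are coded mainly by a tandem array of hairpins in an intron of Sfmbt2. They were examined in a small RNA library of mouse liver. Members were all mouse entries of the deposited miRNA table whose name starts with one of these numbers followed by a letter or a hyphen, on either arm of the hairpin. The rule took 80 entries, and because some entries have the same sequence these are 71 distinct mature sequences, 3.62% of the 1963 distinct mouse sequences in the table. The study compared livers of mice injected with an AAV9 vector (an adeno-associated virus used for gene delivery) in 2 groups of 3 libraries each. In both groups the vector expressed Cre recombinase from the Tnnt2 promoter (cardiac troponin T), chosen in such vectors for activity limited to cardiomyocytes. The Cre group (AAV-Tnnt2-Cre, replicates 10, 11 and 12) received that vector, and the Cre-miR122 group (AAV-Tnnt2-Cre-miR122, replicates 1, 2 and 4) received a vector with a further miR122 element. Whether that element codes for miR-122 or is bound by it is not stated in the labels, which also give no strain, age, sex, dose or time. The counts analysed are those of Cre-miR122 replicate 2 alone. All values therefore describe 1 library labelled liver, without replicates or controls, and the groups were not compared.

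Sfmbt2 codes for a Polycomb group protein and is an imprinted gene, expressed mainly from the paternal copy in the early embryo and the placenta. Its intron holds an miRNA array that is known from mouse and rat and grew by repeated duplication, so many copies carry the same or nearly the same mature sequence. The array is known for its expression in trophoblast and embryonic stem cells, and mice that lack it have placental defects. A miRNA is cut from a hairpin with a 5′ arm (5p) and a 3′ arm (3p), and bases 2 to 8 of the mature strand, the seed, are the main determinant of the mRNAs it pairs with.

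The sequences below are those that carry most of the member reads, written 5′ to 3′ as DNA letters from the deposited table, with the seed (bases 2 to 8) in capitals. The first 5 are the 5p strands of miR-467, which differ from each other in or next to the seed or in where they start. Some also differ further along.
miR-467a-5p: tAAGTGCCtgcatgtatatgcg
miR-467c-5p: tAAGTGCGtgcatgtatatgtg
miR-467d-5p: tAAGTGCGcgcatgtatatgcg
miR-467b-5p: gTAAGTGCctgcatgtatatg
miR-467e-5p: aTAAGTGTgagcatgtatatgt
miR-669c-5p: aTAGTTGTgtgtggatgtgtgt
miR-669a-5p/miR-669p-5p: aGTTGTGTgtgcatgttcatgtct
miR-466h-5p: tGTGTGCAtgtgcttgtgtgta

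The 3p strands with at least 2 reads are made mostly of A and C. The last line below, miR-467a-3p, had no read and is shown because miR-467d-3p is the same stretch moved by 1 base.
miR-669f-3p: cATATACAtacacacacacgtat
miR-669a-3p/miR-669o-3p: aCATAACAtacacacacacgtat
miR-466b-3p/miR-466c-3p/miR-466p-3p: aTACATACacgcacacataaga
miR-467d-3p: aTATACATacacacacctacac
miR-467a-3p: cATATACAtacacacacctaca

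The library held 6661069 reads on distinct mouse sequences, so 1 read is 0.150 RPM (reads for each 1000000 mouse reads), and a count of 0 allows up to 0.450 RPM, taking 3 reads as the floor. Intervals in parentheses are exact Clopper-Pearson 95% intervals, which are two-sided and reach 0.554 RPM for a count of 0. Both the intervals and this floor describe sampling of reads within the library and nothing beyond it, and PCR duplicates could not be removed. The label liver was checked against miRNAs typical of cell types. All 4 liver miRNAs were present, from 4017 reads of miR-194-5p to 3856275 of miR-148a-3p, with 236027 of miR-122-5p and 72085 of miR-192-5p. The striated muscle miRNAs miR-1a-3p and miR-206-3p were higher than some of these. miR-1a-3p had 980271 reads (147164 RPM), above the 35434 RPM of miR-122-5p, and miR-206-3p had 68854 (10337 RPM), close to the 10822 RPM of miR-192-5p. miR-133a-3p, also of muscle, had 915 reads, below all 4 liver miRNAs. The library labelled liver thus held both kinds of marker. The endothelial miR-126a-3p had 59356 reads, and the blood miRNAs miR-486a-5p and miR-451a had 2549 and 305. Of 5 miRNAs of the miR-290 to miR-295 cluster, which marks embryonic stem cells, miR-291a-3p and miR-294-3p had 1 read each and miR-290a-5p, miR-292a-3p and miR-295-3p had 0. The part of these cell types in the member reads was not tested.

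Members had at least 1 read nearly as often as other mouse miRNAs, but at very low levels. Of the 71 sequences, 17 had at least 1 read, which is 23.9%, beside 27.8% of all mouse sequences. At least 10 reads were counted for 3 members, or 4.23%, beside 15.4% of all mouse sequences. By table entries, where identical sequences repeat, 24 of 80 member entries (30.0%) had reads, beside 28.1% of all mouse entries. Together the members held 165 reads, or 24.8 RPM (21.1 to 28.9). That is 0.00248% of mouse reads for 3.62% of the mouse sequences. Without miR-467a-5p the members held 13.7 RPM, and with miR-148a-3p taken out of the total all members held 58.8 RPM. In bulk RNA, few cells with these miRNAs and little of them in each cell cannot be told apart. The median member and the median mouse sequence both had 0 reads, and the mean was 2.32 reads per member against 3393 per mouse sequence, a mean set by a few very abundant miRNAs. The most abundant member ranked 181 among all mouse sequences, and 180 had more reads.

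**Figure D1:**
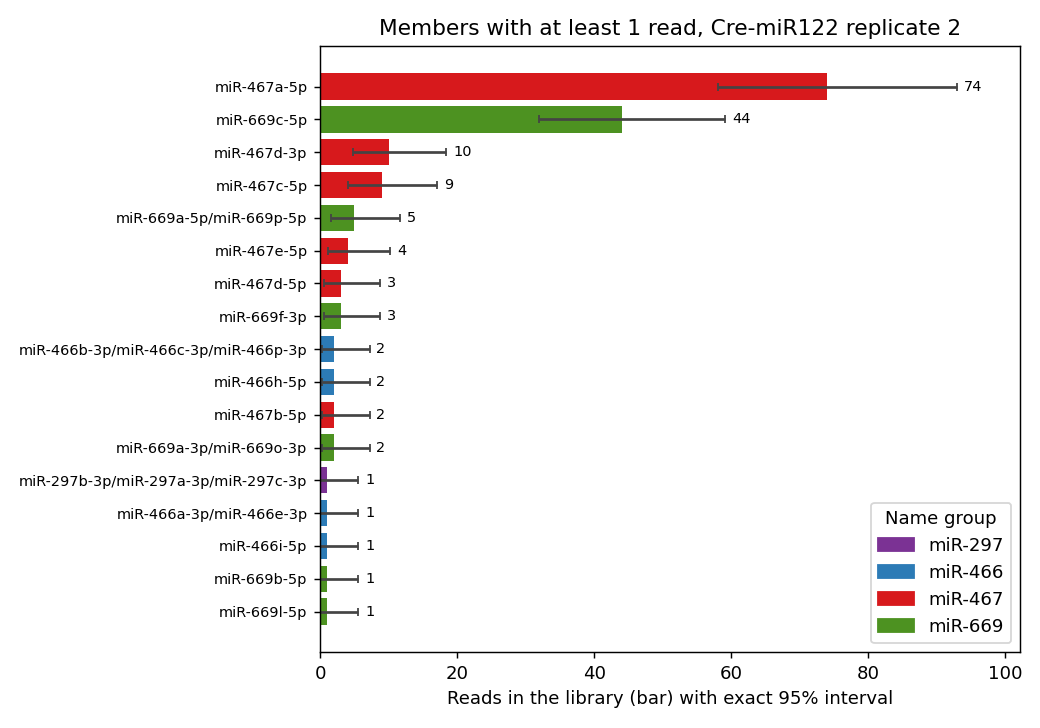
Reads (horizontal axis) of each of the 17 member sequences with at least 1 read (vertical axis), in the Cre-miR122 replicate 2 liver library, coloured by name group, with exact 95% intervals that cover counting error. miR-467a-5p with 74 reads and miR-669c-5p with 44 stand above the others, which have 1 to 10 reads.

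The reads were concentrated on a pair of 5p strands. miR-467a-5p had 74 reads, 44.8% of all member reads (37.1 to 52.8), and miR-669c-5p had 44 reads, 26.7% (20.1 to 34.1). These 2 sequences held 71.5% of the member reads (64.0 to 78.3). No other member exceeded 10 reads. The remaining 15 sequences with reads included 5 with exactly 1 read, at or near the detection limit of the library.

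The miR-467 group had the largest part of the reads. Its 13 sequences held 102 reads, or 61.8% of the member total (53.9 to 69.3). Reads were counted for 6 of them (46.2%, beside 27.8% of all mouse sequences). All 5 of its 5p strands had reads, 92 together, where 32.1% of all mouse 5p sequences had reads. Of these strands, miR-467d-5p and miR-467b-5p did not exceed the floor of 3 reads. miR-467a-5p, which has been studied as a repressor of the angiogenesis inhibitor thrombospondin 1, stood at 11.1 RPM (8.72 to 13.9). miR-467c-5p had 9 reads, or 1.35 RPM (0.618 to 2.56). It differs from miR-467a-5p by C8G and C21T, positions being counted from 1 at the 5′ end and the miR-467a-5p base given first. miR-467d-5p, with C8G and T9C relative to miR-467a-5p, had 3 reads, or 0.450 RPM (0.0929 to 1.32). The intervals of miR-467c-5p and miR-467d-5p overlap, and both lie below that of miR-467a-5p. miR-467e-5p had 4 reads, or 0.601 RPM (0.164 to 1.54). miR-467b-5p, which had 2 reads, is found in the same 12 hairpins as miR-467a-5p but starts 1 base earlier and ends 2 bases earlier. That shift of the start moves the seed from AAGTGCC to TAAGTGC, and 74 of the 76 reads were counted under the entry with the later start. The counts are per entry, so the ends of single reads were not seen.

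On the 3p side of miR-467, reads were counted for 1 of 5 strands. miR-467d-3p had 10 reads, or 1.50 RPM (0.720 to 2.76), and miR-467a-3p, found in the same 12 hairpins and starting and ending 1 base earlier, had 0. The entry named miR-467d-3p is not specific to Mir467d. Its sequence is in 12 hairpins, most of them named Mir467a, so its reads cannot be given to a locus by name. The miR-467 entries with no arm in their name, miR-467f, miR-467g and miR-467h, had 0 reads. Their hairpins lie outside the Sfmbt2 array.

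The miR-669 group had 56 reads over 28 sequences, 33.9% of the member total (26.8 to 41.7). Reads were counted for 6 of the 28 (21.4%, beside 27.8% of all mouse sequences). miR-669c-5p stood at 6.61 RPM (4.80 to 8.87). Its interval just overlaps that of miR-467a-5p, which by itself does not show that their counts are alike. miR-669c-5p is found in a single annotated hairpin, Mir669c, whereas miR-467a-5p may come from any of 12. For miR-467a-5p that would be 6.17 reads per hairpin if the 12 contributed equally. The opposite strand, miR-669c-3p, had 0 reads. The sequence shared by miR-669a-5p and miR-669p-5p, of which miR-669a is known to repress MyoD in cardiac progenitor cells, had 5 reads, or 0.751 RPM (0.244 to 1.75), from up to 15 hairpins. The other detected strands of this group were miR-669f-3p with 3 reads, the sequence shared by miR-669a-3p and miR-669o-3p with 2, and miR-669b-5p and miR-669l-5p with 1 each. The sequence shared by miR-669m-5p and miR-466m-5p was counted with miR-669 and had 0 reads.

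The miR-466 group, nearly as large with 26 sequences, had 6 reads in all. That is 0.901 RPM (0.331 to 1.96), with reads for 4 sequences (15.4%, beside 27.8% of all mouse sequences). miR-466h-5p, known for promoting apoptosis in Chinese hamster ovary cells, had 2 reads. The 3p sequence shared by miR-466b, miR-466c and miR-466p had 2 reads, and that shared by miR-466a and miR-466e had 1. These 3p sequences share 14 hairpins and differ there by 1 base at the start. miR-466i-5p, 20 bases that alternate T and G throughout, had 1 read. miR-466l-3p, studied as a stabiliser of Il10 mRNA in macrophages, had 0 reads. In the miR-297 group, 1 read was counted for the 3p sequence shared by miR-297a, miR-297b and miR-297c, and all 3 of its 5p strands had 0.

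**Figure D2:**
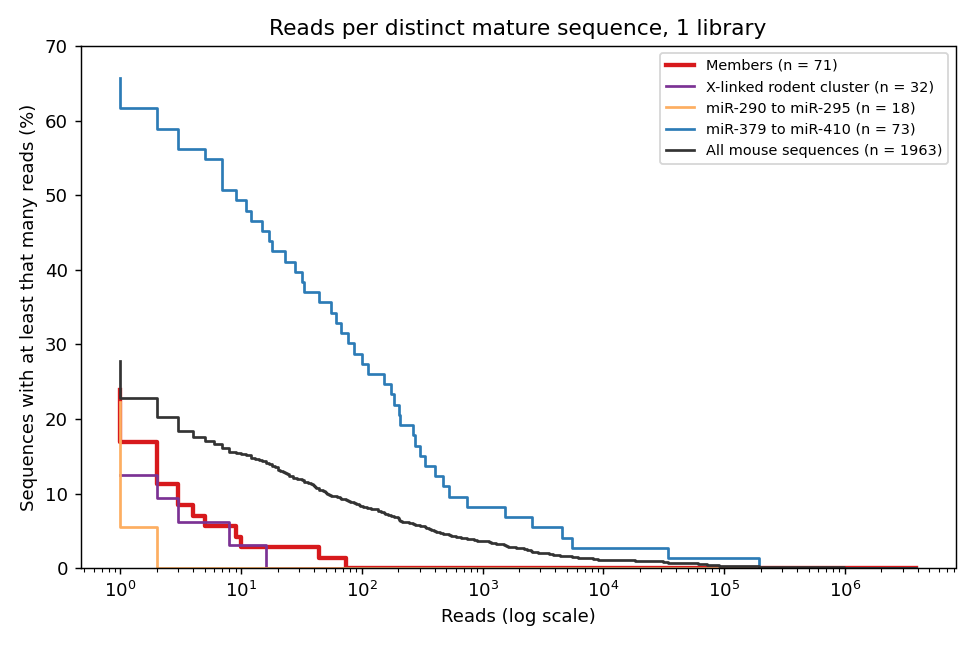
Share of distinct mature sequences (vertical axis, %) that reach at least a given number of reads (horizontal axis, log scale) in 1 library, for the 71 members, 3 other miRNA clusters and all 1963 mouse sequences. The member line starts at 23.9%, close to the 27.8% of all mouse sequences, and reaches 0 above 74 reads, while the line of all mouse sequences extends to 3856275.

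The member counts lay nearer to those of clusters known from testis and embryonic stem cells than to those of another large imprinted cluster. Of all mouse sequences 27.8% had reads and 15.4% had at least 10, beside 23.9% and 4.23% of the members. In the share with reads the members were thus also near mouse sequences at large, and this nearness is not particular to the testis and stem cell clusters. The X-linked rodent cluster of testis miRNAs, from miR-463 to miR-883, had reads for 4 of 32 sequences (12.5%) and 29 reads in all, led by miR-881-3p with 16. The miR-290 to miR-295 cluster had reads for 4 of 18 (22.2%) and 5 reads. The imprinted miR-379 to miR-410 cluster on chromosome 12, which is about as large as the member set, had reads for 48 of 73 sequences (65.8%), at least 10 reads for 36 (49.3%) and 245815 reads in all, led by miR-381-3p with 192422. These are counts in 1 library, and no difference between the clusters was tested.

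The arms were used unequally. The 5p strands held 146 of the 165 member reads, or 88.5% (82.6 to 92.9), and the 3p strands held 19. Reads were found for 11 of 30 5p strands (36.7%, beside 32.1% of all mouse 5p sequences) and for 6 of 29 3p strands (20.7%, beside 31.7% of all mouse 3p sequences). The 12 members with no arm in their name had 0 reads. Most of this arm share came from the leading pair. Without miR-467a-5p the 5p share was 79.1%, and without miR-467a-5p and miR-669c-5p it was 59.6% (44.3 to 73.6). By hairpin, Mir669c had 44 reads on the 5p side and 0 on the 3p side, and Mir467c had 9 and 0. Mir669f had 0 reads on the 5p side and 3 on the 3p side, and the hairpins of Mir466b type had 0 and up to 3, reads that their copies share. Counts of 0 and 3 are within the floor, so no difference in arm was detectable there at this depth.

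Most members lie in the Sfmbt2 intron. The name rule did not use position, but the names were chosen as those of this array, so the location largely follows from that choice. On GRCm38 (mm10), Sfmbt2 (ENSMUSG00000061186.15) occupies positions 10370510 to 10595253 of chromosome 2, plus strand. GENCODE annotates 119 miRNA hairpins inside it, 5.40% of the 2202 annotated mouse hairpins. All 119 lie on the plus strand within 1 intron, from 10461473 to 10523944, between exons 10 and 11 of transcript ENSMUST00000041105.6. They span 53.0 kb, from 10465287 to 10518279. Of these hairpins 71 carry a Mir297, Mir466, Mir467 or Mir669 name and 48 a Gm name, and 0 carry any other miRNA name. A member sequence was found in 100 of the 119, and a member sequence with reads in 57. Copies of a sequence share the same reads, so 57 is not the number of hairpins that gave reads. The intron holds 16 sequences with reads, 7 of them found in 1 hairpin. The matching share over all annotated mouse hairpins was not counted. No mouse mature sequence outside the members was found in the 119 hairpins.

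Of the 71 members, 62 have their sequence in the Sfmbt2 intron, and these held 164 of the 165 reads. For 58 of them it is found nowhere else among annotated hairpins. The 9 members found only outside Sfmbt2 had reads for 1 sequence, the miR-466i-5p repeat, which occurs in 61 annotated hairpins. These include Mir466i on chromosome 13 (17747473 to 17747593, in an intron of Cdk13 on the opposite strand). The other 8, among them miR-466k in an intron of Gm37240 on the opposite strand and miR-466q in an intron of Tnik, had 0 reads. Only members found in 1 annotated hairpin can be placed by sequence. The genome outside annotated hairpins was not searched, and how the counting treated near matches is not given. miR-467c-5p and miR-467d-5p each differ from miR-467a-5p by 2 bases, so the origin of their reads was not shown. Nearly all members found in 1 hairpin lie outside the tandem repeat in the middle of the array. That repeat holds 1 such member (miR-467b-3p, with 0 reads). The position of members found in 1 hairpin is therefore set by which sequences are single-copy. Mir669f (10467229 to 10467349), Mir669l (10468971 to 10469068) and Mir467c (10473931 to 10474027) lie near the start of the array. Mir467e (10505721 to 10505807), Mir467d (10507630 to 10507714), Mir669c (10509296 to 10509404) and Mir466h (10514891 to 10514971) lie towards its end.

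**Figure D3:**
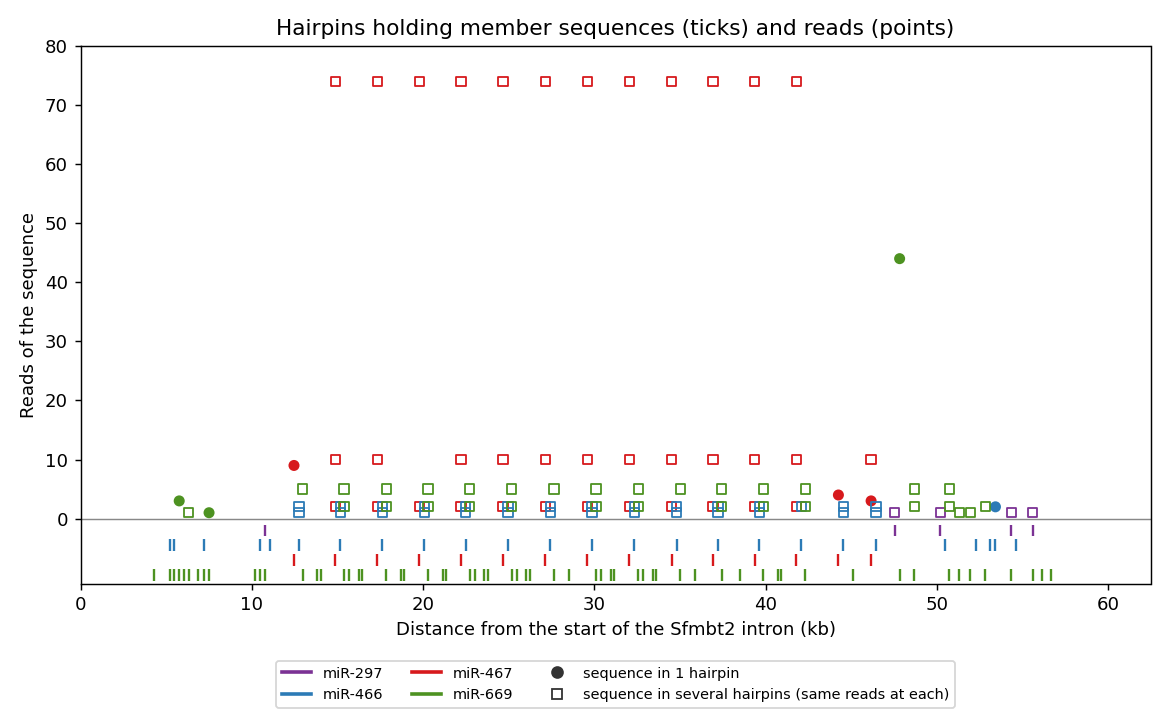
Distance from the start of the Sfmbt2 intron (horizontal axis, kb) against reads of each member sequence (vertical axis), with ticks under the zero line for the hairpins that hold a member sequence of each name group. Filled circles are sequences found in 1 hairpin and open squares are sequences found in several, drawn with the same reads at every copy, so the 12 squares at 74 are the same miR-467a-5p reads.

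The middle of the array is a tandem repeat. The 12 hairpins with the miR-467a-5p sequence run from 10476346 to 10503355, with starts a median of 2451 bases apart (2413 to 2470). After each of the 12, the next member hairpins are of the miR-466 and then the miR-669 group. In the first copy, Mir467a-1 (10476346 to 10476418), miR-467a-5p spans 10476355 to 10476376. Reads of such sequences cannot be assigned to a copy. Beside the 27.8% of all mouse sequences with reads, 7 of the 12 members found in 10 or more hairpins of the Sfmbt2 intron and nowhere else had reads (58.3%, 96 reads in all), and 8 of 13 (61.5%, 97 reads) did with the miR-466i-5p repeat. The members found in 2 to 9 hairpins had reads in 2 of 21 cases (9.52%, 2 reads). Of those found in 1 hairpin, 7 of 37 had reads (18.9%, 66 reads), and 7 of the 30 within Sfmbt2 (23.3%). Of the 96 reads, 74 were of miR-467a-5p. The 7 sequences also include forms of the same strand with starts 1 base apart: miR-467a-5p with miR-467b-5p, and the 3p sequences of miR-466b and miR-466a. They are therefore not 7 separate strands. The grouping by number of hairpins was not planned in advance. These shares were not tested, and copies of a sequence add to the same count.

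Seeds divided the members finely. The 71 sequences have 42 different seeds, 27 of them held by 1 member, and 14 seeds had reads. Shifted starts of the same strand count here as different seeds, as for miR-467a-5p and miR-467b-5p. The share of all mouse seeds with reads was not counted. The seed with most members, TATACAT, is carried by 7 sequences, of which miR-467d-3p had reads. The seed with most reads, AAGTGCC, is carried by miR-467a-5p alone among the members. It is also the seed of miR-290a-3p and miR-292a-3p of the embryonic stem cell cluster, which had 0 reads here. For comparison, miR-292a-3p reads as follows, with the seed in capitals.
miR-292a-3p: aAAGTGCCgccaggttttgagtgt

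Bases 2 to 7, AAGTGC, are shared more widely, by 3 members and 10 other mouse sequences, including the miR-290 and miR-302 families that are known to promote proliferation of embryonic stem cells. In this library the 3 members, miR-467a-5p, miR-467c-5p and miR-467d-5p, had 86 reads. The 10 others had 4 reads, of which miR-302b-3p had 2. The core was taken from the most read member, so that the members lead here follows from its choice.

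The member sequences were rich in alternating bases. A stretch of at least 8 bases that alternates T and G, or C and A, was found in 36 of 71 members (50.7%), against 2.24% of all mouse sequences, of which members are themselves a part. The 5p strands were rich in T and G (median 70.8%, against 59.1% for all mouse 5p sequences) and the 3p strands poor in them (median 22.7%, against 50.0% for all mouse 3p sequences). Reads were found for 7 of the 36 members with such a stretch (19.4%, 66 reads) and for 10 of the 35 without (28.6%, 99 reads). Of all mouse sequences 27.8% had reads, and of all those with such a stretch 22.7% (10 of 44). The members are themselves 36 of those 44, so that share is not a separate background. Outside the members the share was 37.5% (3 of 8). No difference between these shares was tested. miR-467a-5p has a longest stretch of 3 bases, and miR-669c-5p one of 8. How reads with repeats or several genomic matches were counted is not given in the sources used here, and its part in the low counts was not tested.

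**Figure D4:**
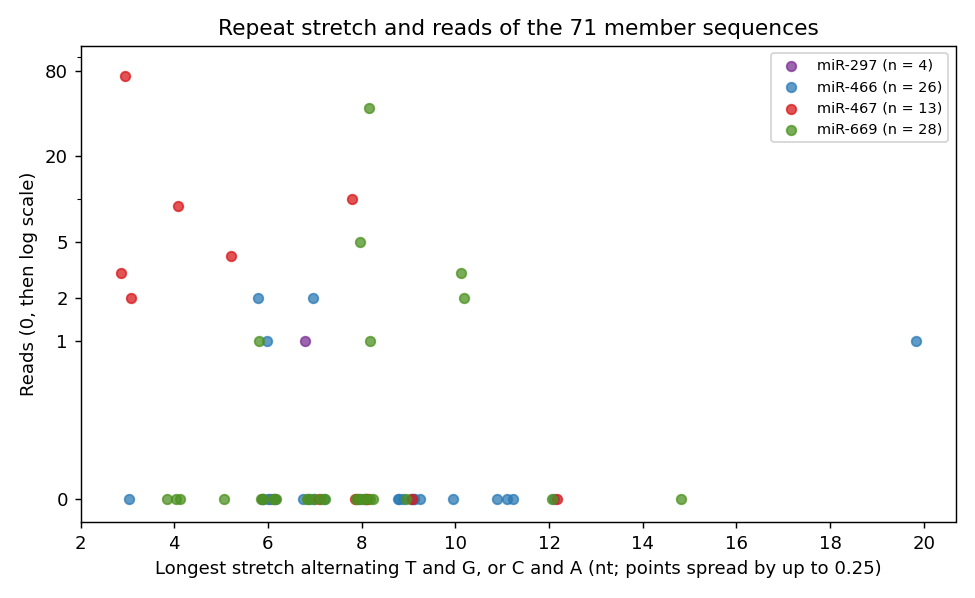
Longest stretch of bases alternating T and G, or C and A (horizontal axis, nt, with points spread sideways for legibility) against reads (vertical axis, 0 and then a log scale) for each of the 71 members, coloured by name group. Members with 0 reads run from 3 to 15 bases, and members with reads include stretches of 3 bases (miR-467a-5p, 74 reads) and 20 bases (miR-466i-5p, 1 read).

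Entries of other species added nothing to the members. Reads with shifted ends can appear in this table under an entry of another species. Of the 702 sequences of other species that had reads and lie in a mouse hairpin, 0 lie in a hairpin of the Sfmbt2 array or of a member. The table also holds 17 entries of 8 other species with the same name numbers, of which 8 are of the rat, and the 12 of their sequences that are not also mouse members had 0 reads. No other sequence with reads was within 2 edits of a member (0 found). End forms of the members that no entry records are not seen in this table.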

How the data were processed

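Small RNA libraries were prepared from total liver RNA by ligating adapters to both RNA ends, PCR and size selection, per the labels' protocols. The authors deposited raw read counts per mature miRNA entry for 1 cleaned library, per the file headers. For the counting program, its handling of reads with several matches and the list's release, the sources used here give nothing. The submitters' processing notes name mm10. The column matches Cre-miR122 replicate 2, and 0 library columns had no matching sample.

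Each distinct sequence was counted a single time, and shares are of the 6661069 mouse reads. Sequences were searched for exact matches in the 2202 miRNA hairpins of GENCODE M21 (GRCm38), with 1-based coordinates. End variants had to overlap a mouse sequence by at least 15 nt. The members and lists were chosen with earlier results of these data known. Every member with a read is named. Values in full are given for the most read ones, and sequences for those with at least 2 reads. miR-467a-3p and miR-292a-3p were added after their values were seen. The planned test of Cre-miR122 against Cre needs more libraries and was not run. On simulated data, 97.2% of intervals at 1 to 100 expected reads held the true share (304 sequences). The simulation drew reads independently, as the intervals assume, so it checks the calculation only. PCR duplicates and reads with several matches were not simulated. The work used SciPy 1.17.1, NumPy 2.4.6, pandas 2.3.3, matplotlib 3.10.9 and Python 3.11.15.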

Additional observations from a re-analysis of the deposited data

How the results depend on the processing

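The count of 17 members with reads was 24 by table entries, 17 with end variants and 16 for sequences in the Sfmbt2 intron. It was 3 with a minimum of 10 reads and 7 for sequences in 1 annotated hairpin. The members' share of 24.8 RPM was 20.2 with the total over all species, 20.5 with end variants in the total, 19.2 with a minimum of 10 reads, 58.8 after taking miR-148a-3p from the total and 13.7 without miR-467a-5p. Each value differs through the reads added or taken away. The 5p share of 88.5% was 79.1% without miR-467a-5p and 59.6% without that sequence and miR-669c-5p. Leaving out 1 or both of the leading members and keeping to 1 hairpin were chosen after seeing the data. No paired analysis was possible because the counts used are of Cre-miR122 replicate 2 alone and no number occurs in both groups. Depth limits all members but a few: 14 of the 17 had under 10 reads.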

Other observations

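A few mouse miRNAs outside the members also have long alternating stretches and had reads. They were picked out after their values were seen. Of the 8 mouse sequences outside the members with a stretch of at least 8 bases alternating T and G, or C and A, 3 had reads (37.5%). Of all mouse sequences 27.8% had reads. miR-574-5p had 51 reads with a stretch of 13 bases, miR-672-5p had 49 with 8 bases, and miR-32-3p had 20 with 9 bases.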
